A study of Arabidopsis thaliana with 20 samples.

Results

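The 44 nuclear genes that encode the subunits and light-harvesting antennae of photosystem I and photosystem II were followed through 20 RNA-seq libraries of Arabidopsis thaliana shoots. They are 44 of the 32833 genes in the count table. They were chosen by gene identifier, from their annotated products and not from their counts, but with earlier results of these data known. The antenna genes number 21, with 6 LHCA genes of photosystem I and 15 LHCB genes of photosystem II. The other 23 encode subunits of the photosystems themselves, called core here, with 12 PSA genes of photosystem I and 11 PSB genes of photosystem II. All but 1 of the 44, LHCB1.5, had enough counts to be tested.

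Photosystem II uses light to take electrons from water and passes them, through plastoquinone, the cytochrome complex and plastocyanin, to photosystem I, which hands them to ferredoxin. Most of the light is caught by chlorophyll-binding LHC proteins. LHCB1, LHCB2 and LHCB3 form the major antenna of photosystem II, and LHCB4, LHCB5 and LHCB6 join it to the core. The LHCA proteins form a belt on photosystem I. The reaction centre proteins that carry out charge separation are encoded in the plastid genome, whereas the antennae and many outer subunits are encoded in the nucleus, so each photosystem is built from the products of both genomes.

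The study compared plants in which a pair of DANGEROUS MIX (DM) genes, immune receptor or resistance loci whose combination causes autoimmunity, had been put into the Col-0 wild type, with Col-0 plants of the same experiment. DM1-DM2d shoots (n = 3) were taken 12 days after sowing (DAS), beside Col-0 12 DAS (n = 2), and DM6-DM7 shoots (n = 3) at 14 DAS, beside Col-0 14 DAS (n = 3). In the third batch, the shoots sampled as DM1-DM2d adr1s (n = 3), as DM6-DM7 adr1s (n = 3) or as Col-0 adr1s (n = 3) carried CRISPR-Cas9 knockouts of the 3 helper receptor genes ADR1, ADR1-L1 and ADR1-L2, and the labels give no age for them. All plants grew on half-strength medium with sucrose under long days, and all aerial tissue was harvested. The promoter of the DM constructs and the number of independent lines were not given in the sources used here, and the replicates are labelled biological without saying whether they came from separate sowings. Every DM group is compared with the Col-0 group that shares its batch. The adr1s and ADR1-intact plants lie in different batches, so the knockout and the batch cannot be told apart in any comparison between them.

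Libraries held 48360933 to 127276992 counts. Plastid genes took 10.4 to 11.5% of the counts in DM1-DM2d and 41.8 to 42.2% in Col-0 12 DAS, but at most 0.17% in every other library, and levels are given below in CPM, counts scaled to a library of 1000000 with edgeR's TMM factors. Of the nuclear counts, the 44 genes took 0.296 to 0.354% in DM1-DM2d shoots, against 9.52 to 9.66% in Col-0 12 DAS shoots. They took 5.95 to 6.93% in DM6-DM7 shoots, against 14.0 to 20.9% in Col-0 14 DAS shoots, where replicate 1 stood below the other 2. In the adr1s batch the share was 6.88 to 8.12% in DM1-DM2d adr1s and 7.53 to 9.34% in DM6-DM7 adr1s, where replicate 3 was the lowest, against 11.8 to 12.8% in Col-0 adr1s. The summed level of 6 root markers was at most 2.36 CPM in any library, and 1 of the 6 was at 0 in 4 of the 7 groups. Counts of calls that changed without Col-0 14 DAS replicate 1 or DM6-DM7 adr1s replicate 3 are also given without that library.

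All 43 tested genes fell in DM1-DM2d, by 21.2-fold at the median, and all 43 fell in DM6-DM7, by 3.51-fold at the median. The share of all tested genes called lower was 36.4% in DM1-DM2d and 29.7% in DM6-DM7 (edgeR's quasi-likelihood test, adjusted p below 0.05). The median log2 change of the 43 was -4.40 in DM1-DM2d and -1.81 in DM6-DM7, beside a median of 0.0046 and 0.06 over all genes. In both comparisons, every DM library lay below every Col-0 library for all 43 genes. The same held for 42.4% of all genes in DM1-DM2d and 26.8% in DM6-DM7. Without Col-0 14 DAS replicate 1, all 43 were still called lower in DM6-DM7, beside 28.3% of all genes. Since whole shoots were measured, fewer green cells and less of these RNAs per cell cannot be told apart.

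**Figure D1:**
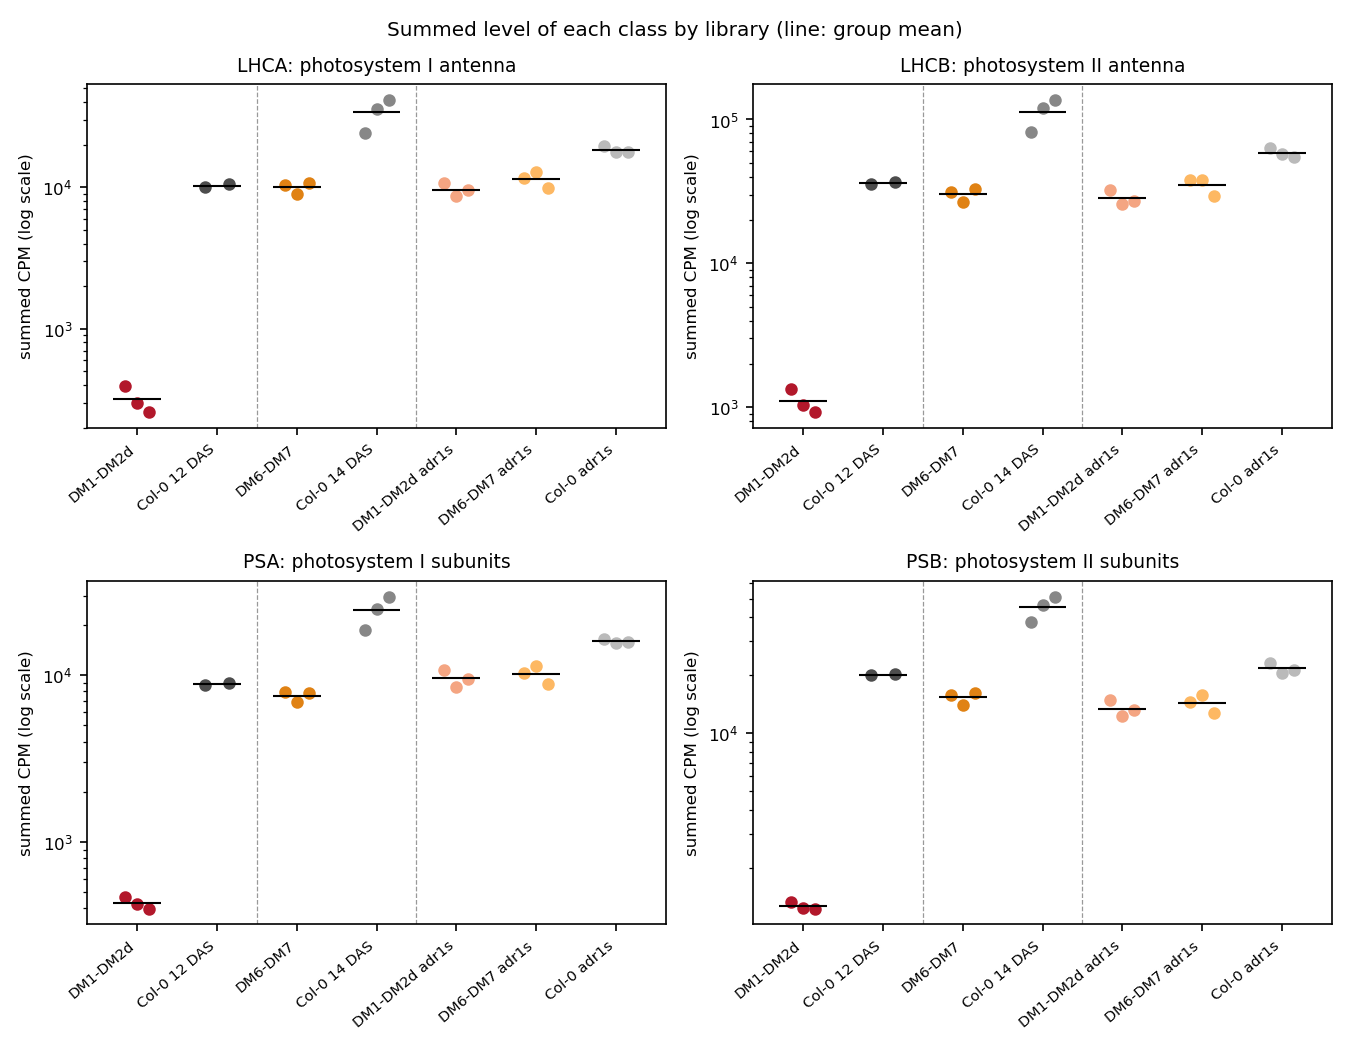
Summed level of each class of genes, in CPM on a log axis, with 1 point per library and a line at the group mean. In all 4 classes the DM1-DM2d libraries sit lowest of all, and each DM group sits below the Col-0 group of its own batch.

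The sum of all members was 2805 to 3538 CPM in DM1-DM2d shoots, against 74367 to 76564 CPM in Col-0 12 DAS shoots. The DM6-DM7 sum was 56686 to 67669 CPM, against 162808 to 258497 CPM for Col-0 14 DAS. The 2 wild-type groups stood apart as well, and they differ in age, batch and plastid share, so levels are tested only within a batch. In the plot of summed levels by class, the LHCB sum averaged 1099 ± 214 CPM in DM1-DM2d (SD, n = 3), against 36195 ± 896 CPM in Col-0 12 DAS (n = 2). The PSB sum averaged 1271 ± 59.7 CPM in DM1-DM2d shoots, against 20149 ± 203 CPM in Col-0 12 DAS.

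Markers of other cell types moved with some of these groups. As background, 8490 of all 23349 tested genes were called lower and 8555 higher in DM1-DM2d. In DM6-DM7 6944 were called lower and 8180 higher. The summed level of 5 epidermis markers was 182 to 198 CPM in DM1-DM2d shoots, against 1163 to 1543 CPM in Col-0 12 DAS, and all 5 fell. The same sum was 616 to 793 CPM in DM6-DM7 shoots, against 1212 to 1427 CPM in Col-0 14 DAS, and again all 5 fell. Of 5 guard cell markers, 1 fell and 2 rose in DM1-DM2d, with summed levels of 1425 to 1697 CPM against 1345 to 1576 CPM in Col-0 12 DAS, and all 5 fell in DM6-DM7, with 650.1 to 718 CPM against 3010.3 to 3923 CPM in Col-0 14 DAS. The sum of 4 phloem markers was 91.5 to 97.9 CPM in DM1-DM2d shoots, against 156 to 190.4 CPM in Col-0 12 DAS, and 129.5 to 149 CPM in DM6-DM7 shoots, against 235 to 308 CPM in Col-0 14 DAS. None of these 14 markers was at 0 in any group. The part of cell composition in the results on the photosystem genes was not tested.

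**Figure D2:**
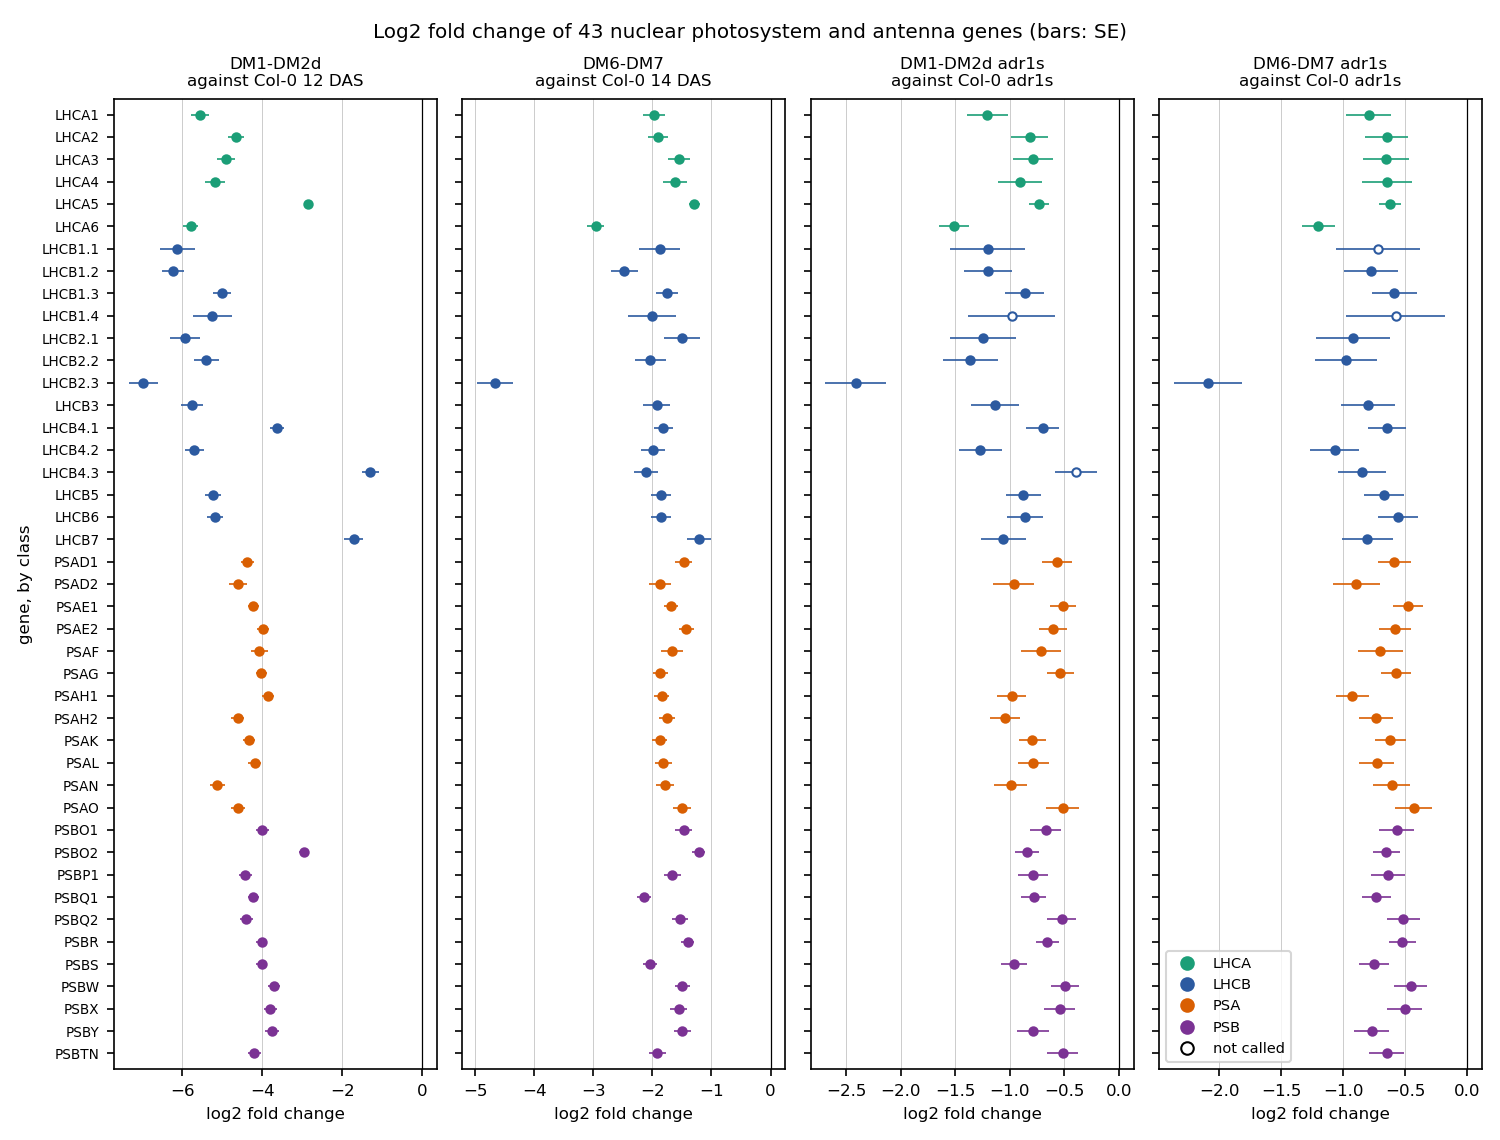
Log2 fold change of each of the 43 tested genes in the 4 comparisons of a DM group with its Col-0 group, with SE as bars; each panel has its own scale, and open symbols mark genes that did not pass the test. Every point lies below 0, and LHCB2.3 is the lowest gene in all 4 panels.

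LHCA1 to LHCA4 encode the belt of antenna proteins on photosystem I, and LHCA4 (AT3G47470) had the highest mean CPM of the class. It measured 109, 72.2 and 54.7 CPM in DM1-DM2d shoots, against 2833 and 2854 CPM in Col-0 12 DAS shoots. At 14 DAS it measured 3561, 3157 and 3551 CPM in DM6-DM7 shoots, against 7582, 11270.0 and 12719.5 CPM in Col-0 14 DAS shoots. Neither pair of groups overlapped, and the log2 changes were -5.18 ± 0.25 and -1.62 ± 0.21 (SE). The other 3 genes of the belt had log2 changes of -5.56 (LHCA1), -4.66 (LHCA2) and -4.92 (LHCA3) in DM1-DM2d, and of -1.98, -1.91 and -1.55 in DM6-DM7.

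LHCA5 (AT1G45474) and LHCA6 (AT1G19150) are scarce antenna proteins that attach photosystem I to the NDH complex of cyclic electron flow, and they changed by very different amounts. LHCA5 measured 10.6, 10.9 and 14.2 CPM in DM1-DM2d shoots, against 87.3 and 84.3 CPM in Col-0 12 DAS shoots, a log2 change of -2.85 ± 0.10. LHCA6 measured 0.655, 0.456 and 0.731 CPM in DM1-DM2d shoots, against 33.8 and 34.8 CPM in Col-0 12 DAS shoots, a log2 change of -5.80 ± 0.18. LHCA5 was among the 3 least changed of the 43 genes in DM1-DM2d, and LHCA6 fell 55.6-fold. The same order held in DM6-DM7, where LHCA5 measured 79.6, 80.9 and 81.8 CPM in DM6-DM7 shoots, against 191, 198 and 205 CPM in Col-0 14 DAS shoots. LHCA6 there measured 27.8, 20.3 and 27.6 CPM in DM6-DM7 shoots, against 189.7, 201 and 196 CPM in Col-0 14 DAS shoots, with Col-0 14 DAS replicate 1 the lowest of its group. Their log2 changes in DM6-DM7 were -1.29 and -2.96.

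The LHCB1 genes encode the most abundant proteins of the major antenna of photosystem II. LHCB1.3 (AT1G29930) had the highest level per exon length in every group but DM1-DM2d, where PSBR was above it, with means of 540 CPM per kb for LHCB1.3 and 649 CPM per kb for PSBR. LHCB1.3 measured 735, 576 and 506 CPM in DM1-DM2d shoots, against 18549 and 20417 CPM in Col-0 12 DAS shoots. It measured 9980.2, 9023 and 11776 CPM in DM6-DM7 shoots, against 25576, 36889.5 and 41238 CPM in Col-0 14 DAS shoots. The DM libraries lay below the Col-0 libraries throughout, with log2 changes of -5.01 ± 0.22 in DM1-DM2d and -1.75 ± 0.19 in DM6-DM7.

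LHCB1.1 (AT1G29920) and LHCB1.2 (AT1G29910), which encode near-identical proteins to LHCB1.3, had 2 of the 3 lowest log2 changes in DM1-DM2d. LHCB1.1 measured 52.6, 12.0 and 30.2 CPM in DM1-DM2d shoots, against 2625 and 1792 CPM in Col-0 12 DAS shoots. LHCB1.2 measured 55.0, 34.6 and 29.3 CPM in DM1-DM2d shoots, against 2948 and 3012 CPM in Col-0 12 DAS shoots. LHCB1.1 varied more among the DM1-DM2d libraries than LHCB1.2 did, and the log2 changes were -6.13 ± 0.43 and -6.23 ± 0.28. At 14 DAS LHCB1.1 measured 4066, 3128 and 3699 CPM in DM6-DM7 shoots, against 10846, 13955 and 15082 CPM in Col-0 14 DAS shoots. LHCB1.2 measured 1731, 1536 and 1985 CPM in DM6-DM7 shoots, against 6677, 9982 and 12608 CPM in Col-0 14 DAS shoots. LHCB1.2 had the third lowest log2 change in DM6-DM7, -2.48, and LHCB1.1 had -1.87.

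LHCB1.4 (AT2G34430) is the fourth measured gene of the family. It measured 51.1, 45.2 and 28.6 CPM in DM1-DM2d shoots, against 1231 and 1936 CPM in Col-0 12 DAS shoots. At 14 DAS it measured 887, 855 and 1215 CPM in DM6-DM7 shoots, against 1267, 4597 and 6005 CPM in Col-0 14 DAS shoots. The groups did not overlap in either batch, but the level of LHCB1.4 spread widely within Col-0 14 DAS. The fifth gene, LHCB1.5 (AT2G34420), was listed at 0 in all 20 libraries. Every base of its exons also lies in an exon of an annotated antisense RNA gene, which was at 0 too. Of 368 protein-coding genes whose exons are wholly shared in this way 94.3% were at 0 in every library, against 9.42% of the 19818 protein-coding genes that share no exon base, so the 0 says nothing about whether LHCB1.5 was expressed.

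LHCB2 proteins are the antenna proteins whose phosphorylation moves the mobile antenna between the photosystems, and LHCB2.3 (AT3G27690) had the lowest log2 change of all 43 genes in each of the 4 comparisons with Col-0. It measured 1.08, 0.772 and 0.537 CPM in DM1-DM2d shoots, against 92.3 and 110.5 CPM in Col-0 12 DAS shoots. At 14 DAS it measured 151, 84.8 and 119.7 CPM in DM6-DM7 shoots, against 1986, 3414 and 3591 CPM in Col-0 14 DAS shoots. These are log2 changes of -6.99 ± 0.36 (adjusted p = 2.85e-11) and -4.66 ± 0.31 (adjusted p = 2.28e-09), or 127-fold and 25.3-fold lower. In both batches every DM library lay below every Col-0 library for LHCB2.3. LHCB2.1 (AT2G05100) measured 18.2, 10.3 and 5.12 CPM in DM1-DM2d shoots, against 759 and 607 CPM in Col-0 12 DAS shoots. LHCB2.2 (AT2G05070) measured 12.2, 8.04 and 5.03 CPM in DM1-DM2d shoots, against 403 and 312 CPM in Col-0 12 DAS shoots. Both were lower in every DM1-DM2d library, with log2 changes of -5.93 and -5.40. At 14 DAS LHCB2.1 measured 3012, 2564 and 2829 CPM in DM6-DM7 shoots, against 5719, 8848 and 9128 CPM in Col-0 14 DAS shoots. LHCB2.2 measured 1761, 1303 and 1487 CPM in DM6-DM7 shoots, against 4575, 6875 and 7238 CPM in Col-0 14 DAS shoots. LHCB2.1 was there one of the less reduced antenna genes, at -1.50, and LHCB2.2 had -2.04.

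LHCB4 proteins are minor antennae that link the major antenna to the core, and their 3 genes diverged in DM1-DM2d. LHCB4.1 (AT5G01530) measured 218, 201 and 188 CPM in DM1-DM2d shoots, against 2663 and 2393 CPM in Col-0 12 DAS shoots. LHCB4.2 (AT3G08940) measured 15.3, 12.1 and 8.59 CPM in DM1-DM2d shoots, against 614 and 636 CPM in Col-0 12 DAS shoots. LHCB4.3 (AT2G40100) measured 9.03, 8.09 and 8.58 CPM in DM1-DM2d shoots, against 20.3 and 22.0 CPM in Col-0 12 DAS shoots. All 3 lay wholly below Col-0 12 DAS, but the log2 changes ran through -5.70 for LHCB4.2, -3.64 for LHCB4.1 and -1.31 ± 0.21 for LHCB4.3, the smallest of the 43. At 14 DAS LHCB4.1 measured 1849.7, 1636 and 1998 CPM in DM6-DM7 shoots, against 4896, 6671 and 7695 CPM in Col-0 14 DAS shoots. LHCB4.2 measured 1339, 976 and 1038 CPM in DM6-DM7 shoots, against 3218, 4845 and 5221 CPM in Col-0 14 DAS shoots. LHCB4.3 measured 26.7, 25.5 and 26.8 CPM in DM6-DM7 shoots, against 166, 97.1 and 77.7 CPM in Col-0 14 DAS shoots. There the 3 genes lay close together and none overlapped Col-0 14 DAS, with log2 changes of -1.81, -1.99 and -2.11. Col-0 14 DAS replicate 1 was the highest of its group for LHCB4.3 and the lowest for LHCB4.1.

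LHCB7 (AT1G76570), a scarce relative of the LHCB proteins, was also little changed beside the rest. It measured 2.28, 1.44 and 2.43 CPM in DM1-DM2d shoots, against 7.64 and 5.86 CPM in Col-0 12 DAS shoots. It measured 16.2, 14.2 and 15 CPM in DM6-DM7 shoots, against 47.2, 32.8 and 25.5 CPM in Col-0 14 DAS shoots. The groups did not overlap, and the log2 changes were -1.72 ± 0.24 and -1.22 ± 0.20. The remaining antenna genes were LHCB3 of the major antenna and LHCB5 and LHCB6 of the minor antennae. They had log2 changes of -5.75, -5.24 and -5.18 in DM1-DM2d and of -1.93, -1.85 and -1.85 in DM6-DM7.

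Promoters are shown for genes towards both ends of the range in DM1-DM2d, and for the antenna gene with the highest mean CPM. These genes encode related proteins and yet differed in how far they fell. Each is the 250 bases before the annotated start in the TAIR10.1 assembly, from RefSeq, read 5′ to 3′ on the gene's strand. All 44 genes were matched to a promoter. Capitals mark 4 motifs on either strand: the G-box CACGTG, the I-box GATAAG, the element CCAATC and the CCA1-type motif AANAATCT. LHCB2.3 lies at chr3:10255656-10255905 (+ strand), LHCB1.3 at chr1:10477635-10477884 (+ strand), LHCA6 at chr1:6612380-6612629 (+ strand), LHCB4.3 at chr2:16745378-16745627 (+ strand) and LHCB7 at chr1:28728748-28728997 (+ strand).
LHCB2.3: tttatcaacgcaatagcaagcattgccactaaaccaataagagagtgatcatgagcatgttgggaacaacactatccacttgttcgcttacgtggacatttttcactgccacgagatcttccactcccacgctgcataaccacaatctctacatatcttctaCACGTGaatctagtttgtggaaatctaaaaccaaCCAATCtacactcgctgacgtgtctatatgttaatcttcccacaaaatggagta
LHCB1.3: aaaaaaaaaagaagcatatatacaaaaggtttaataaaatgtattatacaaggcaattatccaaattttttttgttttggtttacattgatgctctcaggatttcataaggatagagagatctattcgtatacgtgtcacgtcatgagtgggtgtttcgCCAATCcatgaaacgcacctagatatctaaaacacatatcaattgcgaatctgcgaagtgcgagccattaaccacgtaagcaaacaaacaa
LHCA6: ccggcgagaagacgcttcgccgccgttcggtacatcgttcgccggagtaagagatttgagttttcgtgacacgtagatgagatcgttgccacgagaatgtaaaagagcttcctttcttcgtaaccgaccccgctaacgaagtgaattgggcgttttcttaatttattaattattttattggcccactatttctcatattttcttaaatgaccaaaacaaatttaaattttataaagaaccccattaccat
LHCB4.3: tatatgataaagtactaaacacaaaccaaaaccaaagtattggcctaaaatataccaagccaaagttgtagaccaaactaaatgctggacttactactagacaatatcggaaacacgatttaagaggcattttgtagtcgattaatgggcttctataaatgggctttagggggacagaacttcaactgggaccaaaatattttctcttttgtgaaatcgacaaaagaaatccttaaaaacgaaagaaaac
LHCB7: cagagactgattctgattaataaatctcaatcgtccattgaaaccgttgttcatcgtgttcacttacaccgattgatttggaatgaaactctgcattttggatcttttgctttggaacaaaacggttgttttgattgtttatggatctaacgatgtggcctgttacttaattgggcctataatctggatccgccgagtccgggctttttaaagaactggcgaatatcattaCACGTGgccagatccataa
LHCB2.3 held both CACGTG and CCAATC, LHCB1.3 held CCAATC, and LHCB7 held CACGTG. LHCA6 and LHCB4.3 held none of the 4, although in DM1-DM2d the first was among the most reduced genes and the second the least reduced. In DM6-DM7, LHCB4.3 was among the more reduced genes too, at -2.11. CCAATC was found in 10 of 21 antenna promoters and in 1 of 23 core promoters, beside 10.2% of 27443 promoters of the genome. The G-box was in 22.7% of the 44 and in 6.49% of all promoters, the I-box in 20.5% and 12.3%, and AANAATCT in 22.7% and 13.4%. A match of letters is not evidence of a bound factor. The median log2 change in DM1-DM2d was -5.29 for members with CCAATC and -4.23 for those without it, and in DM6-DM7 it was -1.78 and -1.81. Nearly all members with CCAATC are antenna genes. Among the antenna genes alone, the median log2 change in DM1-DM2d was -5.40 for the 9 tested genes with CCAATC and -5.24 for the 11 without it, and in DM6-DM7 it was -1.81 and -1.91.

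Among the PSA genes, PSAF (AT1G31330), a subunit on the lumen side that docks plastocyanin, had the highest mean CPM. It measured 62.0, 58.9 and 55.4 CPM in DM1-DM2d shoots, against 1071 and 913 CPM in Col-0 12 DAS shoots. At 14 DAS it measured 1408, 1222 and 1388 CPM in DM6-DM7 shoots, against 2922, 4052 and 5832 CPM in Col-0 14 DAS shoots. No libraries overlapped, and the log2 changes were -4.08 ± 0.21 and -1.67 ± 0.19. The 12 PSA genes ranged narrowly in DM1-DM2d, with -3.85 for PSAH1 at the upper end and -5.13 for PSAN, which also takes part in plastocyanin docking, at the lower.

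PSAD and PSAE form the stromal side where ferredoxin docks, and each is encoded by a pair of genes. PSAD1 (AT4G02770) measured 79.1, 72.8 and 64.2 CPM in DM1-DM2d shoots, against 1476 and 1514 CPM in Col-0 12 DAS shoots. PSAD2 (AT1G03130) measured 28.0, 25.5 and 22.0 CPM in DM1-DM2d shoots, against 635 and 591 CPM in Col-0 12 DAS shoots. Both fell, with log2 changes of -4.38 and -4.61. At 14 DAS PSAD1 measured 1156, 1041 and 1060.4 CPM in DM6-DM7 shoots, against 2365, 2975 and 3695 CPM in Col-0 14 DAS shoots. PSAD2 measured 461, 342 and 399 CPM in DM6-DM7 shoots, against 1067, 1408 and 1916 CPM in Col-0 14 DAS shoots. PSAD2 had the lower change there too, -1.87 against -1.47. PSAE1 (AT4G28750) measured 11.5, 11.1 and 10.5 CPM in DM1-DM2d shoots, against 206 and 208 CPM in Col-0 12 DAS shoots. PSAE2 (AT2G20260) measured 31.2, 29.6 and 26.9 CPM in DM1-DM2d shoots, against 448 and 478 CPM in Col-0 12 DAS shoots. No library of one group reached the other for either PSAE gene, and their log2 changes in DM1-DM2d were -4.23 and -3.99. At 14 DAS PSAE1 measured 132, 116 and 141 CPM in DM6-DM7 shoots, against 336, 438 and 477 CPM in Col-0 14 DAS shoots. PSAE2 measured 222, 213 and 221 CPM in DM6-DM7 shoots, against 467, 624 and 669.8 CPM in Col-0 14 DAS shoots. PSAE1 had the lower log2 change of the pair in both lines, and the values in DM6-DM7 were -1.68 and -1.42.

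PSAH, PSAL and PSAO lie on the side of photosystem I that receives the mobile antenna. PSAH1 (AT3G16140) measured 35.5, 35.9 and 32.1 CPM in DM1-DM2d shoots, against 471 and 528 CPM in Col-0 12 DAS shoots. PSAH2 (AT1G52230) measured 28.4, 22.6 and 21.2 CPM in DM1-DM2d shoots, against 533 and 651 CPM in Col-0 12 DAS shoots. PSAH2 had the lower log2 change, -4.62 against -3.85. At 14 DAS PSAH1 measured 298, 263 and 294 CPM in DM6-DM7 shoots, against 836, 1043 and 1193 CPM in Col-0 14 DAS shoots. PSAH2 measured 457, 399 and 443 CPM in DM6-DM7 shoots, against 1157, 1591 and 1625 CPM in Col-0 14 DAS shoots. The changes of this pair in DM6-DM7 were -1.85 and -1.75. PSAL and PSAO had -4.20 and -4.61 in DM1-DM2d and -1.81 and -1.51 in DM6-DM7. PSAG and PSAK, which sit next to the LHCA belt, had -4.03 and -4.34 in DM1-DM2d and -1.86 and -1.87 in DM6-DM7. Exons of PSAG (61.4% of bases), PSAH1 (53.3%), PSAE1 (34.1%) and LHCB2.3 (40.6%) are shared with other annotated genes, and reads from shared bases may not have been counted.

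Among the PSB genes, PSBO, PSBP and PSBQ form the lumenal shield of the water-splitting centre, and PSBO1 (AT5G66570) had the highest mean CPM. PSBO1 measured 207, 175 and 175 CPM in DM1-DM2d shoots, against 3002 and 2964 CPM in Col-0 12 DAS shoots. PSBO2 (AT3G50820) measured 94.4, 91.8 and 88.1 CPM in DM1-DM2d shoots, against 720.2 and 711 CPM in Col-0 12 DAS shoots. The log2 change was -4.01 for PSBO1 and -2.97 for PSBO2, with no overlap of groups for either. At 14 DAS PSBO1 measured 3335, 3049 and 3698 CPM in DM6-DM7 shoots, against 7360.2, 9452 and 11095 CPM in Col-0 14 DAS shoots. PSBO2 measured 1347, 1279 and 1348 CPM in DM6-DM7 shoots, against 2563, 3180.4 and 3479.7 CPM in Col-0 14 DAS shoots. PSBO2 had the smallest log2 change of all 43 genes in DM6-DM7, -1.21 ± 0.11.

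The PSBQ pair stayed close in DM1-DM2d and separated in DM6-DM7. PSBQ1 (AT4G21280) measured 61.1, 53.0 and 60.0 CPM in DM1-DM2d shoots, against 1043 and 1132 CPM in Col-0 12 DAS shoots. PSBQ2 (AT4G05180) measured 60.9, 55.6 and 48.0 CPM in DM1-DM2d shoots, against 1083 and 1238 CPM in Col-0 12 DAS shoots. Their log2 changes were -4.23 and -4.40. At 14 DAS PSBQ1 measured 639.8, 500.3 and 618 CPM in DM6-DM7 shoots, against 2299.6, 2742 and 2734 CPM in Col-0 14 DAS shoots. PSBQ2 measured 895, 839 and 1010.0 CPM in DM6-DM7 shoots, against 2127, 2639.9 and 3179 CPM in Col-0 14 DAS shoots. PSBQ1 was the more reduced of the pair there, at -2.14 and -1.53. PSBP1, of the same shield, had log2 changes of -4.43 in DM1-DM2d and -1.66 in DM6-DM7. PSBR (AT1G79040), which stabilises the shield, measured 483, 488 and 457 CPM in DM1-DM2d shoots, against 7497 and 7951 CPM in Col-0 12 DAS shoots. PSBS, the sensor of lumen acidity in photoprotection, had log2 changes of -4.02 and -2.04, and the small subunits PSBW, PSBX, PSBY and PSBTN had -4.20 (PSBTN) to -3.71 (PSBW) in DM1-DM2d and -1.92 to -1.49 in DM6-DM7.

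Photosystem I and photosystem II genes did not separate by their changes. The median log2 change was -4.49 for photosystem I and -4.40 for photosystem II in DM1-DM2d, and -1.77 and -1.85 in DM6-DM7. In the adr1s batch the medians were -0.79 and -0.86 in DM1-DM2d adr1s, and -0.65 and -0.67 in DM6-DM7 adr1s. The gap between the photosystems, as photosystem I minus photosystem II, was -0.087, 0.078, 0.073 and 0.025 in these 4 comparisons. Its sign in DM1-DM2d turned when single libraries were left out (-0.11 to 0.010). The gap was -0.42 there when genes that share at least 5% of their exon bases with other genes were left out.

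Antenna genes fell further than core genes at the median in all 4 comparisons, by most in DM1-DM2d. The median log2 change of the antenna genes was -5.24 in DM1-DM2d, against -4.20 for the core genes, a gap of -1.05. In DM6-DM7 it was -1.89 against -1.67, in DM1-DM2d adr1s -1.02 against -0.71, and in DM6-DM7 adr1s -0.75 against -0.62. Of the 20 tested antenna genes, 16, 15, 18 and 17 lay below the core median in these 4 comparisons, and 13, 3, 10 and 4 lay below every core gene. The exceptions in DM1-DM2d were LHCA5, LHCB4.1, LHCB4.3 and LHCB7. Members share libraries and are not independent, so no p is given for these gaps.

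**Figure D3:**
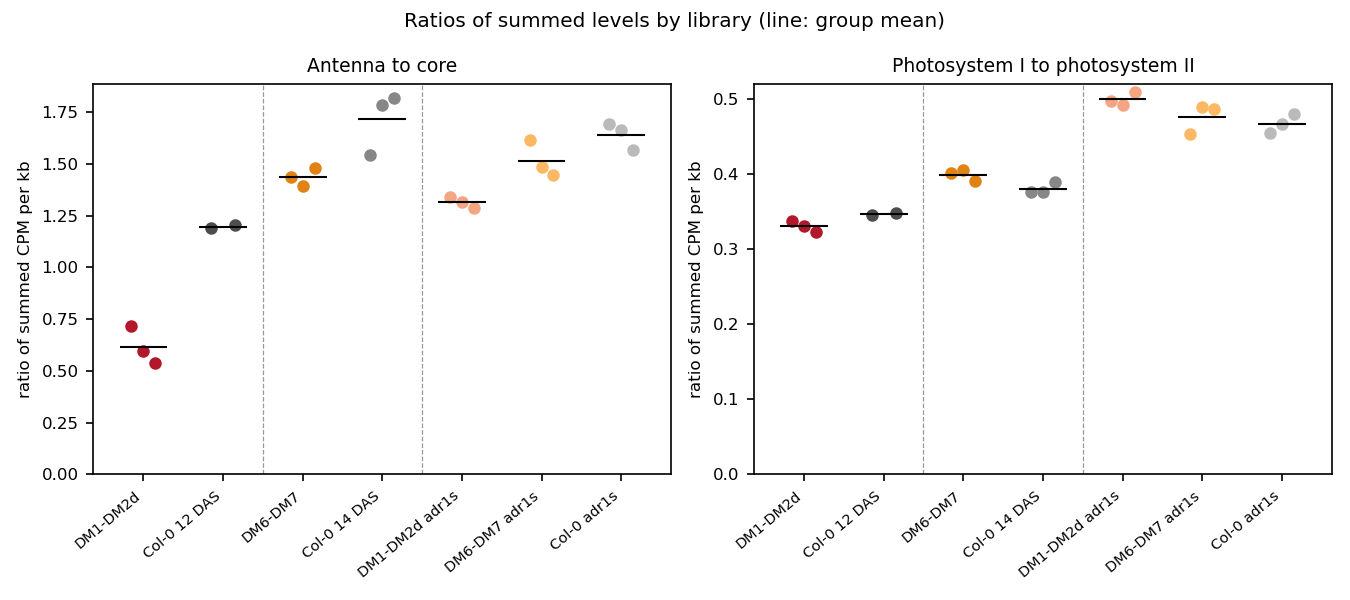
Ratios of summed levels per exon length in each library, antenna to core and photosystem I to photosystem II, with a line at the group mean. The antenna to core ratio is lower in DM1-DM2d than in any other group, while the photosystem ratio moves little within a batch.

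Antenna and core genes were also compared by sums of levels per unshared exon length, which weight the abundant genes most. The antenna to core ratio was 0.535 to 0.716 in DM1-DM2d shoots, against 1.19 to 1.2 in Col-0 12 DAS shoots. For DM6-DM7 the ratio was 1.39 to 1.48, against 1.54 to 1.82 for Col-0 14 DAS. For DM1-DM2d adr1s it was 1.29 to 1.34 and for DM6-DM7 adr1s 1.45 to 1.62, against 1.57 to 1.69 for Col-0 adr1s, and the last DM group overlapped its Col-0 group. The ratio does not rest on LHCB1 and LHCB2 alone. Without them its mean was 0.270 in DM1-DM2d against 0.456 in Col-0 12 DAS, and 0.663 in DM6-DM7 against 0.763 in Col-0 14 DAS.

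The photosystem I to photosystem II ratio averaged 0.331 ± 0.0075 in DM1-DM2d shoots (SD, n = 3), against 0.347 ± 0.0018 in the Col-0 12 DAS shoots (n = 2). In DM6-DM7 it averaged 0.399 against 0.381 in Col-0 14 DAS, and the groups overlapped when whole exon lengths were used (0.388 to 0.402 against 0.373 to 0.391). In the adr1s batch it averaged 0.50 in DM1-DM2d adr1s shoots and 0.477 in DM6-DM7 adr1s shoots, against 0.467 in Col-0 adr1s. DM6-DM7 adr1s overlapped Col-0 adr1s in this ratio (0.454 to 0.490 against 0.455 to 0.480). The PSA to PSB ratio was lower in every DM group, with means of 0.384 against 0.490 in the first batch and 0.582 against 0.643 in the second. In the adr1s batch the PSA to PSB means were 0.877 in DM1-DM2d adr1s shoots and 0.885 in DM6-DM7 adr1s shoots, against 0.924 in Col-0 adr1s. With whole exon lengths, DM6-DM7 adr1s overlapped Col-0 adr1s in the PSA to PSB ratio (0.795 to 0.827 against 0.824 to 0.870). The LHCA to LHCB ratio was 0.291 to 0.299 in DM6-DM7, against 0.261 to 0.267 in Col-0 14 DAS, and 0.297 to 0.310 in DM1-DM2d adr1s, against 0.278 to 0.289 in Col-0 adr1s, without overlap in either. It overlapped its Col-0 group in DM1-DM2d and in DM6-DM7 adr1s.

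**Figure D4:**
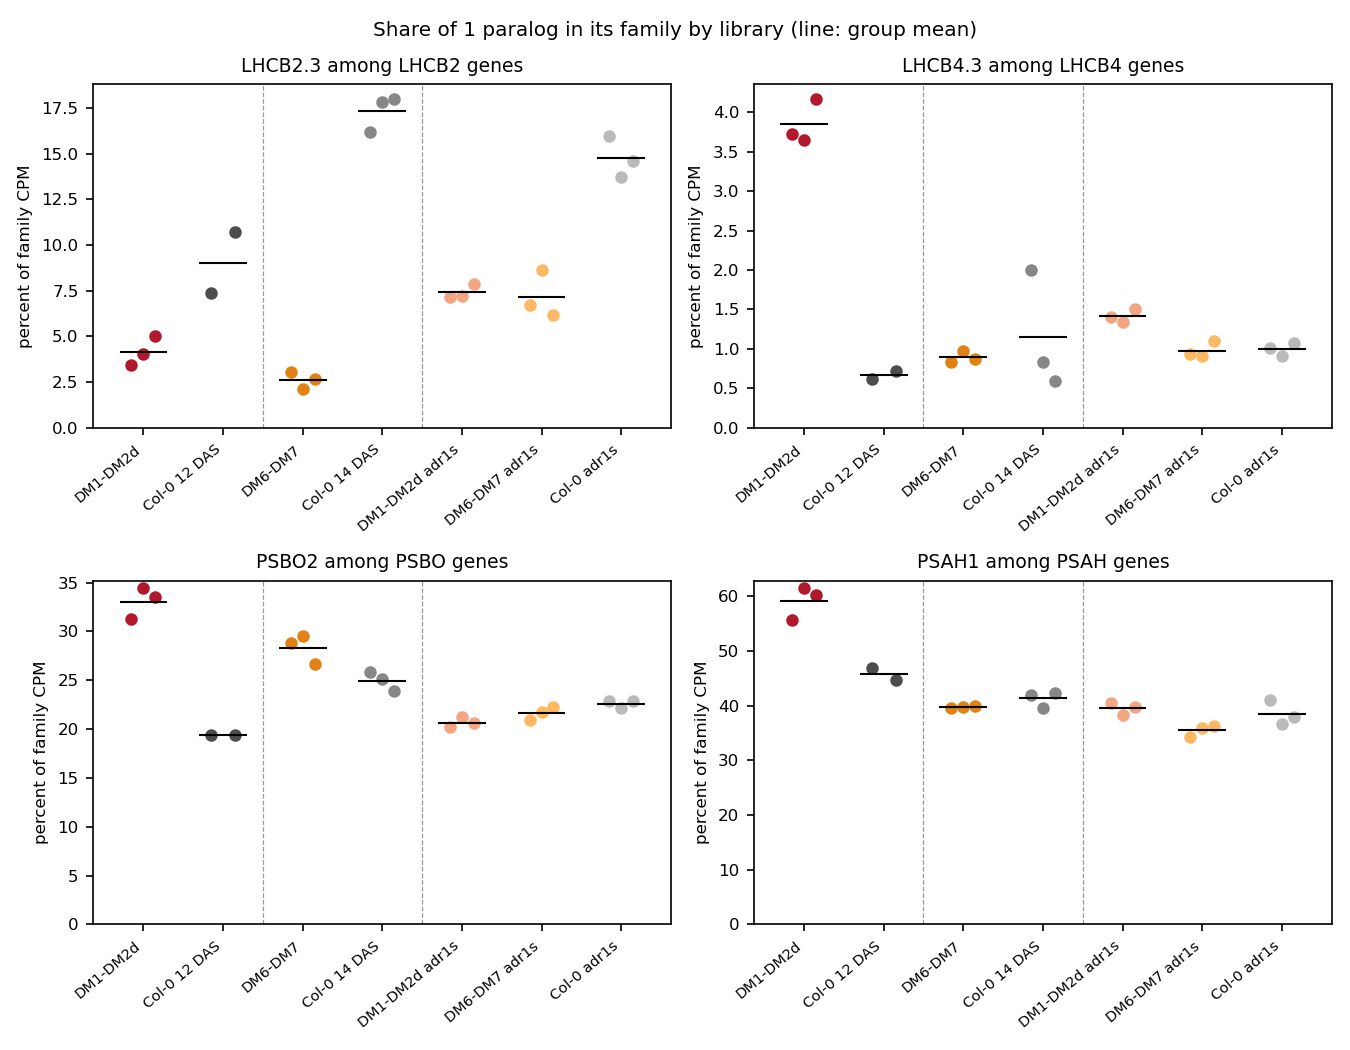
Share of 1 paralog in the summed counts of its family, in percent, with 1 point per library and a line at the group mean. The share of LHCB2.3 is lower in each DM group than in its Col-0 group.

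Within families, the shares shifted in ways that differed between lines. LHCB2.3 made up 4.17% of LHCB2 counts in DM1-DM2d, against 9.04% in Col-0 12 DAS, and 2.64% in DM6-DM7, against 17.3% in Col-0 14 DAS. It made up 7.43% in DM1-DM2d adr1s shoots and 7.17% in DM6-DM7 adr1s shoots, against 14.8% in Col-0 adr1s. No DM library overlapped its Col-0 group in this share. Of the exon bases of LHCB2.3, 40.6% also lie in exons of another gene, so its counts, and its share as a level, may be too low in every group. The share of LHCB2.1 was 53.2% in DM1-DM2d against 59.8% in Col-0 12 DAS, but 63.3% in DM6-DM7 against 46.2% in Col-0 14 DAS. LHCB2.1 and LHCB2.2 share an identical stretch of 152 bases, so the split of reads within it is less certain than their sum. Windows of 150 bases found in both genes made up 0.239% of those in LHCB2.1 and 0.302% of those in LHCB2.2.

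LHCB1.3 took a larger share of the LHCB1 counts in every DM group. Its mean share was 84.6% in DM1-DM2d against 74.2% in Col-0 12 DAS, and 61.7% in DM6-DM7 against 56.4% in Col-0 14 DAS. It was 58.2% in DM1-DM2d adr1s shoots and 55.3% in DM6-DM7 adr1s shoots, against 53.0% in Col-0 adr1s. LHCB4.1 took 90.8% of LHCB4 counts in DM1-DM2d against 79.6% in Col-0 12 DAS, was wholly higher in both adr1s lines too (67.2% and 65.1% against 58.4% in Col-0 adr1s), and overlapped Col-0 14 DAS in DM6-DM7. LHCB4.3 took 3.85% in DM1-DM2d against 0.669% in Col-0 12 DAS, was also wholly higher in DM1-DM2d adr1s, and overlapped its Col-0 group in DM6-DM7 and in DM6-DM7 adr1s.

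In the PSBO pair, PSBO2 took 33.1% of the counts in DM1-DM2d against 19.4% in Col-0 12 DAS, and 28.3% in DM6-DM7 against 25.0% in Col-0 14 DAS. It took 20.7% in DM1-DM2d adr1s shoots and 21.7% in DM6-DM7 adr1s shoots, against 22.6% in Col-0 adr1s. PSAD1 took a larger share of its pair in every DM group, with means of 74.1% in DM1-DM2d against 70.9% in Col-0 12 DAS and 73.1% in DM6-DM7 against 67.5% in Col-0 14 DAS. PSAH1 took 59.1% of PSAH counts in DM1-DM2d against 45.8% in Col-0 12 DAS, but its share was wholly below that of Col-0 adr1s in DM6-DM7 adr1s, with 34.2 to 36.2% against 36.7 to 41.0%, and overlapped its Col-0 group in DM6-DM7 and in DM1-DM2d adr1s. PSBQ1 took 39.0% of PSBQ counts in DM6-DM7 against 49.7% in Col-0 14 DAS, was also wholly lower in both adr1s lines (48.9% and 49.6% against 53.4% in Col-0 adr1s), and overlapped Col-0 12 DAS in DM1-DM2d.

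With the ADR1 genes knocked out, the photosystem genes still fell in both DM lines, but few by a factor of 2 or more. In DM1-DM2d adr1s, 41 of 43 passed the test, beside 18.8% of all genes called lower, and 11 were at least 2-fold lower, beside 4.43% of all genes. The 2 that did not were LHCB1.4 (-0.98 ± 0.40) and LHCB4.3 (-0.40 ± 0.19). In DM6-DM7 adr1s, 41 of 43 passed, beside 12.6% of all genes, and 3 were at least 2-fold lower, beside 2.52% of all genes. The exceptions were LHCB1.1 (-0.72 ± 0.34) and LHCB1.4 (-0.58 ± 0.40). The median log2 change was -0.82 in DM1-DM2d adr1s shoots and -0.65 in DM6-DM7 adr1s shoots. Every DM library lay below every Col-0 adr1s library for all 43 genes in both comparisons, as was the case for 29.4% and 24.6% of all genes. Without DM6-DM7 adr1s replicate 3, 27 of the 43 passed, beside 8.76% of all genes, all 43 log2 changes were still negative and their median was -0.57. In total, 40 genes were called lower in all 4 comparisons with Col-0, and 26 when DM6-DM7 adr1s replicate 3 was left out. The share of all genes called lower in all 4 was not counted. It can be at most the share in DM6-DM7 adr1s alone, 12.6%, or 8.76% without that library. The 14 calls lost without that library were those of LHCA2, LHCA3, LHCA4, LHCB1.2, LHCB1.3, LHCB2.1, LHCB3, LHCB6, PSAE1, PSAF, PSAO, PSBQ2, PSBW and PSBX.

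LHCB2.3 was again the most reduced. It measured 290.3, 220.2 and 247 CPM in DM1-DM2d adr1s shoots and 309.5, 414 and 224 CPM in DM6-DM7 adr1s shoots, against 1513, 1232 and 1295 CPM in Col-0 adr1s shoots. The log2 changes were -2.41 ± 0.28 and -2.09 ± 0.28. LHCA6 measured 61.1, 49.4 and 51.8 CPM in DM1-DM2d adr1s shoots and 65.5, 76.5 and 59.2 CPM in DM6-DM7 adr1s shoots, against 162, 144 and 156 CPM in Col-0 adr1s shoots. LHCA6 had the second lowest log2 change in both lines, -1.51 in DM1-DM2d adr1s shoots and -1.20 in DM6-DM7 adr1s shoots. LHCB2.2 measured 1615, 1157 and 1212 CPM in DM1-DM2d adr1s shoots and 1917, 1903 and 1382 CPM in DM6-DM7 adr1s shoots, against 3449, 3434 and 3360.5 CPM in Col-0 adr1s shoots. LHCB2.2 was the third lowest in DM1-DM2d adr1s, at -1.36. LHCB4.2 measured 1202, 930.1 and 1055 CPM in DM1-DM2d adr1s shoots and 1263, 1339.9 and 1068 CPM in DM6-DM7 adr1s shoots, against 2742, 2495 and 2467 CPM in Col-0 adr1s shoots. LHCB4.2 was the third lowest in DM6-DM7 adr1s, at -1.07.

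The genes with the highest mean CPM of each class fell less. LHCB1.3 measured 9653, 7803 and 8231 CPM in DM1-DM2d adr1s shoots and 11616, 10977 and 8508 CPM in DM6-DM7 adr1s shoots, against 17142, 15406 and 14245 CPM in Col-0 adr1s shoots. LHCA4 measured 3515, 2914 and 3143 CPM in DM1-DM2d adr1s shoots and 3823, 4256 and 3414 CPM in DM6-DM7 adr1s shoots, against 6239, 5906 and 5826 CPM in Col-0 adr1s shoots. PSAF measured 2397, 1724 and 1995 CPM in DM1-DM2d adr1s shoots and 2089.8, 2289 and 1789 CPM in DM6-DM7 adr1s shoots, against 3386, 3315 and 3332 CPM in Col-0 adr1s shoots. None of these groups overlapped, and the log2 changes in DM1-DM2d adr1s were -0.87, -0.91 and -0.71. PSBO1 measured 3162, 2547 and 2728 CPM in DM1-DM2d adr1s shoots and 3272, 3231 and 2565 CPM in DM6-DM7 adr1s shoots, against 4791, 4279 and 4378 CPM in Col-0 adr1s shoots. Its log2 changes were -0.67 in DM1-DM2d adr1s shoots and -0.57 in DM6-DM7 adr1s shoots.

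The genes that changed least were mostly core genes. PSBW (AT2G30570), a small subunit that stabilises photosystem II with its antenna, measured 1399, 1128 and 1250.2 CPM in DM1-DM2d adr1s shoots and 1235, 1462 and 1186 CPM in DM6-DM7 adr1s shoots, against 1856, 1756 and 1722 CPM in Col-0 adr1s shoots. PSAE1 measured 319, 275 and 292 CPM in DM1-DM2d adr1s shoots and 310.2, 339 and 259.7 CPM in DM6-DM7 adr1s shoots, against 442, 401 and 422 CPM in Col-0 adr1s shoots. PSAO (AT1G08380) measured 1381, 1173 and 1299.8 CPM in DM1-DM2d adr1s shoots and 1382, 1539 and 1159 CPM in DM6-DM7 adr1s shoots, against 1958, 1762 and 1789 CPM in Col-0 adr1s shoots. Their log2 changes in DM6-DM7 adr1s were -0.46, -0.48 and -0.43, the 3 smallest. LHCB4.3, the smallest in DM1-DM2d adr1s, measured 53.7, 40.0 and 50.4 CPM in DM1-DM2d adr1s shoots and 36.0, 35.9 and 33.2 CPM in DM6-DM7 adr1s shoots, against 68.6, 56.0 and 65.0 CPM in Col-0 adr1s shoots. LHCB4.3 was higher in each Col-0 adr1s library than in every DM library of the batch. In the core pairs PSAE2 measured 227, 181 and 213 CPM in DM1-DM2d adr1s shoots and 204, 243 and 183 CPM in DM6-DM7 adr1s shoots, against 342, 300.4 and 303 CPM in Col-0 adr1s shoots. PSBO2 measured 800.1, 685 and 709 CPM in DM1-DM2d adr1s shoots and 869, 896 and 736 CPM in DM6-DM7 adr1s shoots, against 1419, 1217 and 1298 CPM in Col-0 adr1s shoots. Their log2 changes were -0.61 and -0.84 in DM1-DM2d adr1s, and -0.58 and -0.65 in DM6-DM7 adr1s.

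The other genes of the families followed the same pattern in this batch. LHCB1.1 measured 3518, 2847 and 2869 CPM in DM1-DM2d adr1s shoots and 4859.9, 4524 and 3560.1 CPM in DM6-DM7 adr1s shoots, against 7666, 7058 and 6567 CPM in Col-0 adr1s shoots. LHCB1.2 measured 2296, 2016 and 2045 CPM in DM1-DM2d adr1s shoots and 3057, 3066 and 2371 CPM in DM6-DM7 adr1s shoots, against 5377, 4686 and 4526 CPM in Col-0 adr1s shoots. LHCB1.4 measured 1018, 843 and 953 CPM in DM1-DM2d adr1s shoots and 1255, 1574 and 899 CPM in DM6-DM7 adr1s shoots, against 2119, 1826 and 1618 CPM in Col-0 adr1s shoots. For all 3 the DM libraries lay below Col-0 adr1s, although the test called LHCB1.2 alone in both lines, and in DM6-DM7 adr1s that call was lost without replicate 3 (adjusted p = 0.0667 by edgeR). LHCB2.1 measured 2142, 1665 and 1679 CPM in DM1-DM2d adr1s shoots and 2363, 2483 and 2041 CPM in DM6-DM7 adr1s shoots, against 4499, 4314 and 4218 CPM in Col-0 adr1s shoots. LHCB4.1 measured 2568, 2006 and 2256 CPM in DM1-DM2d adr1s shoots and 2544, 2595 and 1934 CPM in DM6-DM7 adr1s shoots, against 3999, 3557 and 3533 CPM in Col-0 adr1s shoots. Both were called lower in both lines, but the call of LHCB2.1 in DM6-DM7 adr1s (adjusted p = 0.0264 by edgeR) was lost when any 1 of the 6 libraries compared was left out (0.0514 to 0.0988). PSAD1 measured 1370.0, 1167 and 1195 CPM in DM1-DM2d adr1s shoots and 1209, 1402 and 1075 CPM in DM6-DM7 adr1s shoots, against 1862, 1814 and 1865 CPM in Col-0 adr1s shoots. PSAD2 measured 566, 391 and 464 CPM in DM1-DM2d adr1s shoots and 521, 568 and 404 CPM in DM6-DM7 adr1s shoots, against 969, 886 and 921 CPM in Col-0 adr1s shoots. PSAD2 had the lower log2 change of the pair in both lines, -0.97 against -0.57 in DM1-DM2d adr1s and -0.90 against -0.59 in DM6-DM7 adr1s. PSAH1 measured 327, 252 and 289 CPM in DM1-DM2d adr1s shoots and 269.9, 346 and 287 CPM in DM6-DM7 adr1s shoots, against 622, 534 and 559 CPM in Col-0 adr1s shoots. PSAH2 measured 482, 406 and 438 CPM in DM1-DM2d adr1s shoots and 519, 617 and 505 CPM in DM6-DM7 adr1s shoots, against 896, 922 and 915 CPM in Col-0 adr1s shoots. Both fell in both lines. PSBQ1 measured 846, 684 and 759 CPM in DM1-DM2d adr1s shoots and 823, 847 and 695 CPM in DM6-DM7 adr1s shoots, against 1356, 1255 and 1320.5 CPM in Col-0 adr1s shoots. PSBQ2 measured 837, 767 and 785 CPM in DM1-DM2d adr1s shoots and 804, 907 and 695 CPM in DM6-DM7 adr1s shoots, against 1199.5, 1087 and 1151 CPM in Col-0 adr1s shoots. PSBQ1 had the lower log2 change, -0.78 against -0.52 in DM1-DM2d adr1s and -0.73 against -0.52 in DM6-DM7 adr1s. The remaining scarce antenna genes were LHCA5, with 86.4, 79.5 and 80.9 CPM in DM1-DM2d adr1s shoots and 91.5, 92.2 and 82.4 CPM in DM6-DM7 adr1s shoots, against 142, 134 and 135 CPM in Col-0 adr1s shoots, and LHCB7. LHCB7 measured 8.45, 8.92 and 6.96 CPM in DM1-DM2d adr1s shoots and 8.26, 11.2 and 9.59 CPM in DM6-DM7 adr1s shoots, against 17.6, 15.6 and 17.6 CPM in Col-0 adr1s shoots, and both of these genes were called lower in both lines.

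Epidermis and guard cell markers were also measured in this batch, where 18.8% of all genes were called lower in DM1-DM2d adr1s shoots and 12.6% in DM6-DM7 adr1s shoots. The epidermis sum was 963 to 1081 CPM in DM1-DM2d adr1s and 1095 to 1225 CPM in DM6-DM7 adr1s, against 1229 to 1341 CPM in Col-0 adr1s, with 3 of 5 and 0 of 5 markers called lower. The guard cell sum was 649 to 949 CPM and 771 to 905 CPM in these DM lines, against 1632 to 2039 CPM in Col-0 adr1s, with 4 of 5 called lower in each. The part of guard cell RNA in the photosystem results was not tested.

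**Figure D5:**
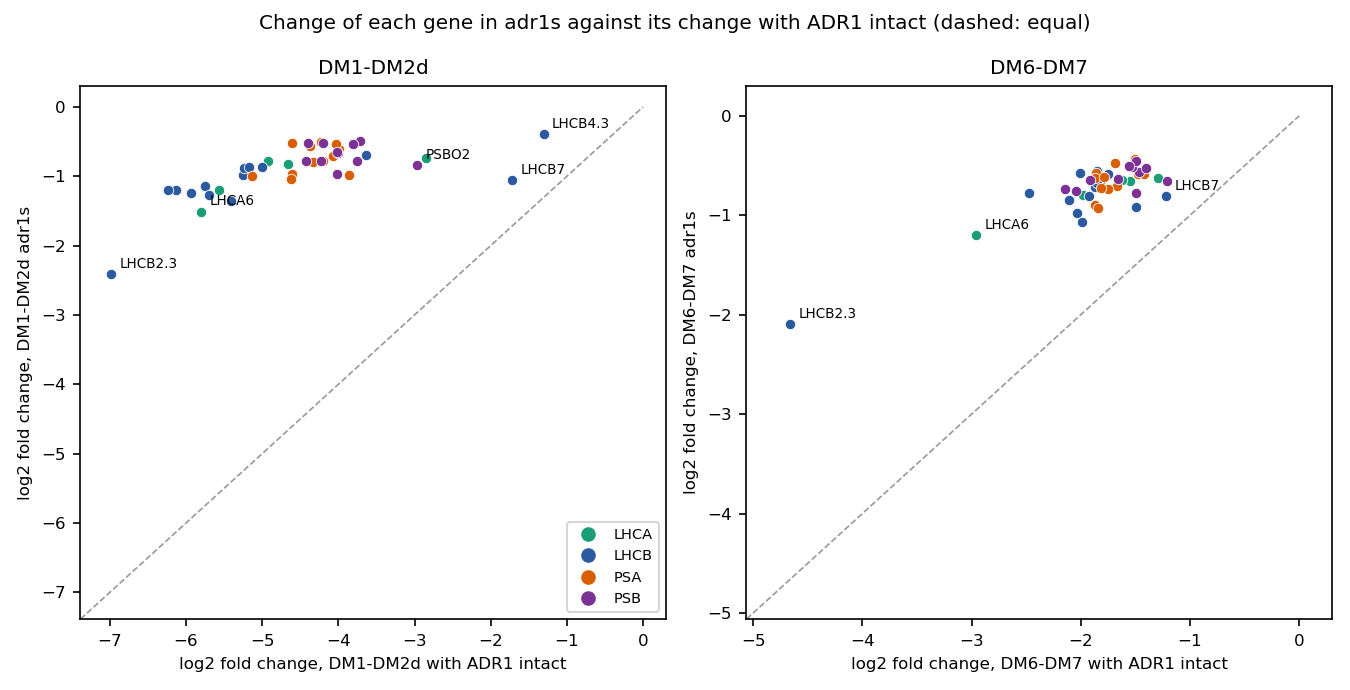
Log2 fold change of each gene in the adr1s line, against Col-0 adr1s, plotted against its log2 fold change with ADR1 intact, for each pair of DM genes; the dashed line marks equal changes. Every point lies above the dashed line, and LHCB2.3 stands lowest on both axes of both panels.

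The effect of each DM pair in the adr1s plants was compared with its effect in ADR1-intact plants by an interaction term. For DM1-DM2d, 42 of 43 differences were called higher (weaker reduction in adr1s), beside 32.5% of all genes, and LHCB7 was not called (0.65 ± 0.31), although its difference passed in 3 of the 11 fits that left out a library, with a replicate block, with upper-quartile scaling and when only the libraries compared were fitted. The called differences ran from 0.91 ± 0.29 for LHCB4.3 to 5.03 ± 0.33 for LHCB1.2. For DM6-DM7, 39 of 43 were called higher, beside 16.3% of all genes, from 0.56 ± 0.15 for PSBO2 to 2.57 ± 0.38 for LHCB2.3. LHCB1.1, LHCB1.4, LHCB2.1 and LHCB7 were not called, with 1.15, 1.43, 0.58 and 0.41. LHCB1.1 and LHCB1.4 did pass with DESeq2 (adjusted p = 0.0212 and 0.014) and with upper-quartile scaling. LHCB1.1 also passed with a replicate block and when only the libraries compared were fitted. Without Col-0 14 DAS replicate 1, or without DM6-DM7 adr1s replicate 3, 40 were called, LHCB1.4 among them. The call of LHCB2.2 (adjusted p = 0.0321 by edgeR) was lost in 6 of the 12 fits that left out a library (0.0524 to 0.062). With the counts of each family summed, LHCB2 was not called for DM6-DM7 (0.88 ± 0.39, adjusted p = 0.0948 by edgeR). Every other summed family was called higher. As a share of the log2 change in the intact line, the change left in adr1s had a median of 18.7% over the 43 genes for DM1-DM2d, from 11.2% (PSAO) to 61.9% (LHCB7). For DM6-DM7 the median was 38.7%, from 28.4% (PSAE1) to 66.1% (LHCB7). The ages of the adr1s plants are not labelled, and the knockout cannot be told apart from the batch in these differences.

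The effects of the 2 DM pairs differed with ADR1 intact. The DM1-DM2d effect was lower than the DM6-DM7 effect for 41 of 43 genes, beside 27.2% of all genes. LHCB2.1 had the lowest difference, -4.43 ± 0.45. LHCB4.3 went the other way, 0.80 ± 0.29 (adjusted p = 0.0297 by edgeR, beside 22% of all genes called higher), and LHCB7 was not called (-0.50 ± 0.31). The LHCB4.3 call was lost in 4 of 11 fits that left out a library, namely DM1-DM2d replicate 1 or 3 or either Col-0 12 DAS library (adjusted p of 0.0511 to 0.0764 by edgeR), and when only the libraries compared were fitted (0.061). Without Col-0 14 DAS replicate 1 the LHCB4.3 difference was 0.42, and LHCB7 was called, at -0.77. The DM6-DM7 shoots were 2 days older and of another batch, and these differences cannot be told apart from the DM pair. In the adr1s batch, where both lines were labelled with the same batch, no member was called between DM1-DM2d adr1s and DM6-DM7 adr1s, beside 8.91% of all genes called in either direction. Before adjustment 5 of the 43 had p below 0.05, and DESeq2 called 0. The log2 differences lay between -0.49 (LHCB1.1) and 0.46 (LHCB4.3), and 39 of the 43 were negative.

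Other nuclear genes of the thylakoid fell with the photosystems, taken from lists of genes of the same pathway. Electron carriers between and after the photosystems were lower for 10 of 11 genes in DM1-DM2d and in DM6-DM7 and for 9 of 11 in both adr1s lines. The share of all genes called lower was 36.4% in DM1-DM2d, or 18.8% with adr1s, and 29.7% in DM6-DM7, or 12.6% with adr1s. These shares are the background for the counts of pathway genes from all libraries. Without Col-0 14 DAS replicate 1 the share was 28.3% in DM6-DM7. Without DM6-DM7 adr1s replicate 3 it was 8.76% in DM6-DM7 adr1s. In DM1-DM2d the log2 change was -3.44 for PGRL1A, of cyclic electron flow, -3.61 for PETC, the Rieske protein, and -4.19 for PETE2, a plastocyanin. PGRL1B was called higher in DM6-DM7 (0.33) and in DM1-DM2d adr1s (0.22), and LFNR2, a ferredoxin reductase chosen after its values were seen, had log2 changes of -4.48 and -1.22 in the intact lines, and of 0.16 in DM1-DM2d adr1s shoots and 0.01 in DM6-DM7 adr1s shoots. All 3 tested nuclear subunits of the ATP synthase fell in every comparison, with -3.41 for ATPC1 and -3.10 for ATPG in DM1-DM2d.

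Photosystem II assembly and repair factors were lower for 10 of 10 genes in DM1-DM2d, DM6-DM7 and DM1-DM2d adr1s and for 9 of 10 in DM6-DM7 adr1s, or 8 of 10 without its replicate 3. PSB27 had a log2 change of -4.59 in DM1-DM2d, PPL1 of -4.03 and HCF136 of -3.57. Photosystem I assembly factors were lower for all 5 genes in the first 3 comparisons and for 3 of 5 in DM6-DM7 adr1s (2 without its replicate 3), with PSA2 at -2.38 and Y3IP1 at -2.46 in DM1-DM2d. Of 5 genes that bring antenna proteins to the thylakoid, 4 fell in DM1-DM2d, including cpSRP54 (-3.20) and LTD (-3.88), and all 5 in the other comparisons. The fifth, cpFTSY, the receptor of that pathway, was called higher in DM1-DM2d (0.81) and lower in DM6-DM7 (-0.84). Relatives of the antenna proteins were lower for 7 of 8 genes in both intact lines (6 in DM6-DM7 without Col-0 14 DAS replicate 1) and 6 of 8 in both adr1s lines, with LIL3:1 at -3.78 in DM1-DM2d. The kinases and phosphatases of the thylakoid were lower for 4 of 4 genes in the intact lines, such as PBCP (-2.87) and STN8 (-2.30) in DM1-DM2d, and for 3 of 4 in the adr1s lines. Thylakoid shape genes were lower for 4 of 4 in DM1-DM2d and in DM6-DM7, for 2 of 4 in DM1-DM2d adr1s and for 3 of 4 in DM6-DM7 adr1s (2 without its replicate 3), with CURT1A at -3.66 in DM1-DM2d.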

How the data were processed

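RNA was sequenced from 20 strand-specific, paired-end shoot libraries, per the labels' protocols. The deposited table holds raw counts per gene on the TAIR10 genome, made by the authors per the submitters' processing notes, which name featureCounts 2.0.1, HISAT2 2.2.1, fastp 0.23.2 and DESeq2 1.34.0. Options for strand and shared exons were not given in the sources used here. Between 64.9 and 78.0% of counts below 20 were even, so mates of a pair may have been counted singly.

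The counts were fitted with edgeR 4.0.16 (R 4.3.3) in 1 quasi-likelihood model of all 20 libraries with a term per group, TMM factors of 0.723 to 1.25, and genes kept by filterByExpr (minimum count 10), leaving 23349. P-values were adjusted by Benjamini-Hochberg over these genes within each of 8 contrasts and called below 0.05, and SE is the size of the log2 change over the root of the F statistic. The p-values measure the spread between these libraries. Genes named with values in every library were those with the highest mean CPM of a class, the 3 lowest and 3 highest log2 changes of each contrast, and paralogs. Pathway genes named were those with the lowest adjusted p and any called in the other direction. Levels per length use the exon bases that no other gene shares, in TAIR10.1. The fit was tested on simulated data, and DESeq2 1.42.0, other scalings, filters, thresholds and sample sets were alternatives. The members, lists and tests were chosen with earlier results of these data known. Plastid genes were not analysed here by name.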

Additional observations from a re-analysis of the deposited data

Results flagged for a closer look

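Several results differed between contrasts by a test of the difference itself. The effect of DM1-DM2d in adr1s minus its effect with ADR1 intact was called higher for 42 of 43 genes, from 0.91 for LHCB4.3 to 5.03 for LHCB1.2 on the log2 scale. The corresponding difference for DM6-DM7 was called higher for 39 of 43, from 0.561 for PSBO2 to 2.57 for LHCB2.3. With ADR1 intact, the effect of DM1-DM2d minus that of DM6-DM7 was called lower for 41 of 43, with -4.43 for LHCB2.1 at the lower end, and higher for LHCB4.3 at 0.803, a call that was lost in 4 of 11 fits that left out a library (adjusted p of 0.0511 to 0.0764 by edgeR) and when only the libraries compared were fitted (0.061). All 3 differences cross batches, which cannot be told apart from them.

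Some ratios moved in opposite directions in different lines, without overlap of libraries, and these differences were not tested. The photosystem I to photosystem II ratio averaged 0.331 in DM1-DM2d, below its Col-0 group, whereas it was above the Col-0 group of the batch in DM6-DM7 and in DM1-DM2d adr1s, although DM6-DM7 overlapped Col-0 14 DAS when whole exon lengths were used. The share of LHCB2.1 in LHCB2 counts averaged 53.2% in DM1-DM2d, below its Col-0 group, and it was above the Col-0 group in DM6-DM7 and in DM1-DM2d adr1s. LHCB2.2 took 42.6% in DM1-DM2d, above its Col-0 group, and less than its Col-0 group in DM6-DM7. PSBO2 took 33.1% of PSBO counts in DM1-DM2d, above its Col-0 group, and less than its Col-0 group in DM1-DM2d adr1s.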

How the results depend on the processing

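Of 285 alternative values of the counts of called genes and of the gaps between classes, 274 stayed within 1.5 times the reported count or, for a gap, within 1 SD of its values over the DM libraries, and 11 moved further. With a fold of at least 2 added, DM1-DM2d adr1s had 11 genes called lower and DM6-DM7 adr1s had 3, beside 4.43% and 2.52% of all genes. Between these lines, 1 gene was called when only their libraries were fitted, beside 1357 lower and 2112 higher of all 20593 genes tested. Leaving out each library in turn gave 0 to 1 there, and 27 (without DM6-DM7 adr1s replicate 3) to 40 for DM6-DM7 adr1s, beside 8.76 to 11.3% of all genes. The 14 genes lost without that library had adjusted p of 0.0505 to 0.203 by edgeR. The photosystem I minus photosystem II gap in DM1-DM2d was -0.11 to 0.010 over libraries left out and -0.33 with paralogs summed. It was -0.42 without members that share at least 5% of their exon bases, an alternative chosen after seeing the data. Without those members it was 0.0085 in DM1-DM2d adr1s, and with paralogs summed it was -0.0015 in DM6-DM7 adr1s, where the antenna minus core gap was -0.049. The causes of these shifts were not tested. Upper-quartile scaling moved the median log2 change of all genes to -0.30 in DM1-DM2d and -0.12 in DM6-DM7, and in DM6-DM7 it gave 8594 genes lower and 6318 higher, against 6944 lower and 8180 higher with TMM. All members that were tested kept a negative change in the 4 comparisons with Col-0. With the replicate number as a block, 43, 43, 42 and 42 genes were called lower in these 4 comparisons. The shares of all genes called lower in that fit were 34.4, 28.2, 18.4 and 12.2%. Same-numbered libraries deviated together weakly at 14 DAS (correlations of 0.105, 0.0437 and 0.140, each library correlating best with its own number), and between -0.109 and 0.178 in the other batches, so the numbers were not taken to pair the samples. Pathway counts without single libraries were added after seeing the data. Counting depth limits LHCA6 and LHCB2.3 in DM1-DM2d most, where both were near 1 CPM or below.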

Other observations

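The split of counts within the PSAE pair did not overlap between batches. PSAE1 made up 27.4% of PSAE counts in DM1-DM2d shoots and 30.9% in the Col-0 12 DAS shoots. At 14 DAS it made up 37.2% in DM6-DM7 shoots and 41.5% in Col-0 shoots. In the adr1s batch the share was 58.9% for DM1-DM2d adr1s, 59.1% for DM6-DM7 adr1s and 57.3% for Col-0 adr1s. Of PSAE1, 34.1% of the exon bases are shared with other genes, and of PSAE2 10.4%. Age, batch and, for the adr1s libraries, the knockout of the ADR1 genes cannot be told apart here.

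Levels and changes were also compared gene by gene. Across the 43 genes, Spearman's rho between the mean level and the log2 change was -0.22 for DM1-DM2d and -0.03 for DM6-DM7, and -0.27 for DM1-DM2d adr1s and 0.04 for DM6-DM7 adr1s. These values run across genes of the same libraries, which are not independent replicates.

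Markers of the meristem and of leaf identity did not all move with the photosystem genes. YAB1 and KAN1, genes of the lower leaf side, were chosen here after their values were seen. YAB1 had a log2 change of -3.12 in DM1-DM2d and -1.94 in DM6-DM7, whereas KAN1 had -0.02 and -0.21. The sum of the 5 markers was 23.2 to 25.1 CPM in DM1-DM2d shoots, against 65.1 to 67.2 CPM in Col-0 12 DAS, and 54.7 to 65.4 CPM in DM6-DM7 shoots, against 92.7 to 124 CPM in Col-0 14 DAS. Their part in the photosystem results was not tested.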
